A study of Mus musculus with 9 samples.

Results

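The proteasome is the protease complex that degrades proteins tagged with ubiquitin, and its subunits are encoded by separate genes. A set of 38 mouse proteasome subunit genes was followed across liver arrays: 7 alpha and 7 constitutive beta genes of the core, 3 immunoproteasome beta genes, 9 base genes, 8 lid genes and 4 activator genes. A gene was represented by the probe set that the platform annotation assigns to it alone and, where there were several, by the one with the highest mean over all arrays. By this rule 37 of the 38 genes were measured, out of 18193 genes in all. Psme2, an activator gene, had no probe set assigned to it alone and has no value here.

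RNA came from liver of KKAy mice at 8 weeks of age; this strain is obese and becomes diabetic, and the labels give type 2 diabetes as its condition. There were 9 one-colour Affymetrix arrays, 3 for each of 3 groups: KKAy mice whose treatment is labelled as none (called untreated here), KKAy mice given insulin (Insulin), and KKAy mice given biomineralized insulin (BI). Per the labels' protocols, injections into the peritoneum held 100 µL of DMEM, a culture medium, with insulin at 40 µg/mL; for BI the total insulin was the same and 11% of it was in the biomineralized form. The protocol's control mice received the medium alone, and it is not stated whether the mice labelled as untreated are those. All groups share the KKAy background, and no lean strain was analysed here. The labels do not state whether an array holds RNA of 1 mouse or of several, so the p-values measure the spread between these arrays, which may be technical. The growth protocol of 1 array, BI replicate 2, describes rats. It was kept with its labelled group. The median over all subunit genes, and those of several classes, are also given without it.

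In the barrel-shaped core, rings of alpha subunits gate the entry and rings of beta subunits line the chamber; Psmb5, Psmb6 and Psmb7 carry the active sites. In immune cells and under interferon, Psmb8, Psmb9 and Psmb10 take the places of Psmb5, Psmb6 and Psmb7, which gives the immunoproteasome and favours peptides for MHC class I. A regulatory particle caps the core: its base unfolds substrates with ATPases, its lid removes ubiquitin, and other caps, the activators, open the gate without ubiquitin. The liver relies on proteasomes for the turnover of metabolic enzymes and of damaged proteins, and proteasome genes are known targets of the factor NRF1, encoded by Nfe2l1, which binds antioxidant response elements in their promoters.

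The promoters below show the sequences next to 5 genes on which the values below turn: Psma5 and Psma2, the genes with the largest differences from the untreated arrays in BI; Psmb5, a constitutive catalytic subunit; and its counterpart Psmb8 with Psmb9, which lies close to it in the MHC region. Each stretch is the 100 bases before the annotated start site, read 5′ to 3′ on the gene's strand, from RefSeq on build GRCm38.p6. Capitals mark matches to 4 motifs searched on both strands: TGANNNNGC (the core of the antioxidant response element), CCAAT, the interferon response element and TTCNNNGAA (a STAT motif).
Psma5 (chr3:108256826-108256925, plus strand): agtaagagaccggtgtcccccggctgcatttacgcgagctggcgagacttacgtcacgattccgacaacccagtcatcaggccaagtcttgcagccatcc
Psma2 (chr13:14613142-14613241, plus strand): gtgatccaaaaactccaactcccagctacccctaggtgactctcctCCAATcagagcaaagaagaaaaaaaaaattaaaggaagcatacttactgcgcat
Psmb5 (chr14:54617996-54618095, minus strand): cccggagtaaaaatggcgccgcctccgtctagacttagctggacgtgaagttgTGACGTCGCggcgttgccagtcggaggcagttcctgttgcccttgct
Psmb8 (chr17:34198095-34198194, plus strand): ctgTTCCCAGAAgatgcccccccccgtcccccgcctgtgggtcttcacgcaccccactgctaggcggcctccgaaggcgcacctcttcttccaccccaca
Psmb9 (chr17:34187331-34187430, minus strand): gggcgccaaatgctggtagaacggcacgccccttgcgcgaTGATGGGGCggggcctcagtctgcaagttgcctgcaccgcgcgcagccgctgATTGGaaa

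Psma5 has no match in these bases. In the full windows of 300 bases (250 before and 50 after the start), which 32 of the 38 genes have, TGANNNNGC was present for 17 genes (53.1%), against 41.4% of 27025 genes with a window. It was present in 4 of 4 constitutive beta genes with a window (Psmb3, Psmb4, Psmb5 and Psmb6), in 4 of 7 alpha genes, in 2 of 3 immunoproteasome genes (Psmb8 and Psmb9), in 3 of 6 lid genes, in 2 of 8 base genes and in 2 of 4 activator genes. CCAAT was present for 12 of the 32 genes (37.5%) against 37.9% of all genes, 5 of them alpha genes. The interferon response element was found for 3 of the 32 (Psmb3, Psmd4 and Psme1; 9.38% against 3.49%), and TTCNNNGAA for 2 (Psmb8 and Psmd2; 6.25% against 8.47%). These are matches of letters and not measured binding sites.

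The deposited values are log2 signals, and 2% trimmed means of the linear signal were equal on all arrays, with array medians from 6.12 to 6.30. The tissue label was checked on 4 measured hepatocyte markers (Alb, Apoa1, Ttr and Cyp2e1). Their summed linear signal was 156700 to 186600 on the untreated arrays, 157500 to 176600 on Insulin arrays and 159700 to 187700 on BI arrays. In limma, 0 of 45037 probe sets passed an adjusted p of 0.05 in Insulin against untreated (0%), 5 passed in BI against untreated (0.0111%) and 0 passed in BI against Insulin (0%). At an unadjusted p under 0.05, these comparisons had 2014, 2016 and 1821 probe sets (4.47%, 4.48% and 4.04%). In tissue RNA, fewer cells of a type and less RNA per cell cannot be told apart.

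All 37 subunit genes read above the array medians on every array, with a lowest value of 8.90 (Psme3). The median within-group standard deviation was 0.38 for all genes and 0.16 for the subunit genes. The subunit genes were brighter (median level 12.38, against 7.27 for all genes), and no set of equal level was compared. The steadiest was Psmd6 (0.055), a lid subunit. The least steady were the 3 immunoproteasome genes Psmb10 (0.38), Psmb8 (0.32) and Psmb9 (0.31).

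Many subunit genes were high or low together on single arrays, and arrays of one group could lie on opposite sides. On untreated replicate 3, 34 of 37 genes (91.9%) were below their own mean over the 9 arrays, with a median deviation of -0.21, and 19 had their lowest value of all 9 arrays there (51.4%, against 11.7% of all genes). Psmd11, Psme3 and Psme4 were the exceptions, above their mean on that array. On BI replicate 1, 35 of 37 genes were above their mean (median deviation 0.17), and 15 had their highest value there (40.5%, against 7.7% of all genes).

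BI replicate 2 went the other way from BI replicate 1. There 31 of 37 genes (83.8%) were below their mean, with a median deviation of -0.10; the 6 above it were Psma5, Psmb7, Psmd6, Psmd7, Psmd11 and Psme4. On the Insulin arrays 21, 32 and 24 genes were above their mean (replicates 1 to 3), with median deviations of 0.019, 0.066 and 0.036. Untreated replicates 1 and 2 had 25 and 15 genes above (0.056 and -0.081), and BI replicate 3 had 27 (0.092). For all genes the share below their own mean lay between 44.1% and 50.7% on every array.

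Untreated replicate 3 also had the highest Gapdh 3′ minus 5′ difference, a measure of RNA integrity from control probe sets. It was 0.28, 0.31 and 0.65 on untreated replicates 1 to 3, 0.55, 0.54 and 0.48 on the Insulin arrays and 0.39, 0.26 and 0.42 on the BI arrays. The same difference for actin ordered the arrays otherwise: it was 1.90, 1.80 and 2.11 untreated, 2.23, 2.00 and 2.05 in Insulin and 2.09, 1.96 and 1.99 in BI, highest on Insulin replicate 1 and lowest on untreated replicate 2. The part of RNA integrity in the subunit values was not tested.

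**Figure D1:**
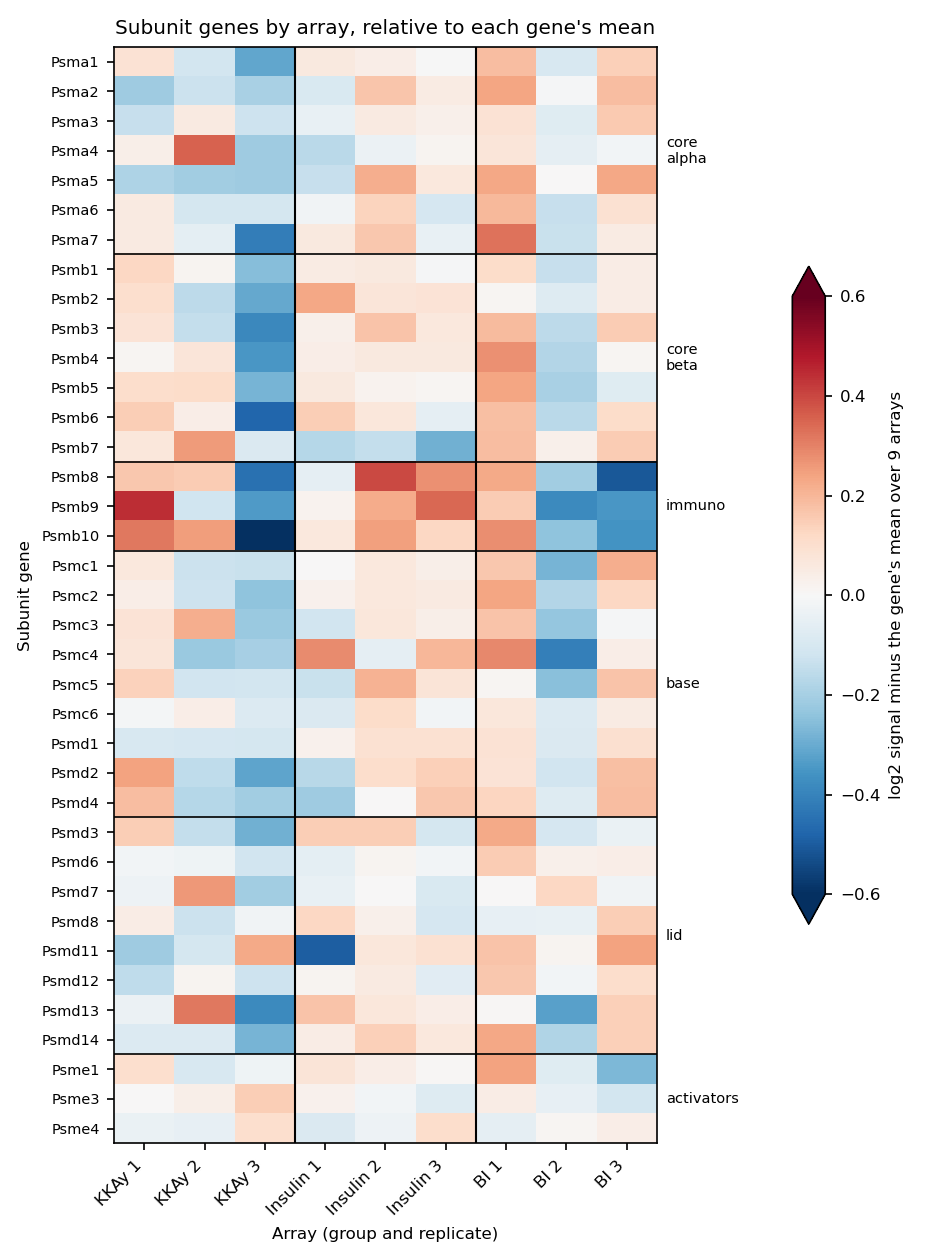
Each row is a subunit gene and each column an array; colour gives the log2 signal minus that gene's mean over the 9 arrays, and lines separate the groups and the parts of the complex. Untreated (KKAy) replicate 3 and BI replicate 2 are mostly blue, with 34 and 31 of 37 genes below their mean, and BI replicate 1 is mostly red, with 35 above.

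In both insulin groups most subunit genes stood slightly above the untreated arrays, and for no single gene did the difference pass limma's test. In Insulin against untreated, 30 of 37 genes had the higher mean (81.1%, against 53.7% of all genes), with a median log2 difference of 0.10 where all genes had 0.023. In BI against untreated, 28 of 37 had the higher mean (75.7%, against 50.1%), with a median of 0.10 where all genes had 0.00038. In BI against Insulin, 17 of 37 had the higher mean (45.9%, against 45.7%), with a median of -0.00058 where all genes had -0.026. The first pair of comparisons shares the untreated arrays.

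0 of the 37 genes passed limma's adjusted p of 0.05 in any of the 3 comparisons, where 0%, 0.0111% and 0% of probe sets and 0%, 0.011% and 0% of all genes did. In limma 0 of the 37 had an unadjusted p under 0.05 in any comparison; of all genes, 2.48% were higher and 1.39% lower at this level in Insulin against untreated, 2.13% and 1.77% in BI against untreated and 1.55% and 1.89% in BI against Insulin. The smallest adjusted p of a subunit gene was 0.9999 in Insulin against untreated, 0.9991 in BI against untreated and 0.9999 in BI against Insulin. When limma's variance moderation used a trend and robust fitting, the unadjusted p fell under 0.05 for Psma5 in Insulin against untreated, for Psma2 and Psma5 in BI against untreated and for Psmb7 in BI against Insulin, all higher in the group named first. In that fit 2.72%, 2.61% and 1.79% of all genes were higher at this level and 1.75%, 2.18% and 2.18% lower, with 0 subunit genes lower. After adjustment 0 subunit genes passed, with a smallest adjusted p of 0.9965.

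The fit limits how large a difference could have been missed in the chosen probe set of a gene. In these probe sets all 95% intervals of the 37 genes held 0. In Insulin against untreated the intervals reached at most from -0.65 (Psmb7) to 0.91 (Psmb10), and in BI against untreated from -0.80 (Psmb9) to 0.74 (Psma5). All 37 intervals lay within a 2-fold change in these comparisons. In BI against Insulin 36 of 37 did, and the exception was Psmb8, with a lower bound of -1.003. Other probe sets of these genes are not held to these bounds. A dimmer one of Psma1 (mean level 7.41) had intervals from 0.084 to 1.29 in Insulin and from 0.14 to 1.34 in BI against untreated. Its limma adjusted p values were 0.9999 and 0.9991. A dimmer one of Psmb8 had an interval from -2.51 to -0.096 in BI against Insulin (limma adjusted p = 0.9999).

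The shift against the untreated arrays moved with single arrays. Without untreated replicate 3, the median difference was 0.040 in Insulin (23 of 37 genes higher) and 0.025 in BI (21 of 37). Without untreated replicate 1 it was 0.17 in Insulin, and without Insulin replicate 2 it was 0.063. In BI it was 0.038 without BI replicate 1 (25 higher) and 0.19 without BI replicate 2 (29 higher). BI against Insulin moved from 17 genes higher to 29 without BI replicate 2, with a median of 0.087. With the arrays shifted to equal medians, 25 genes were higher in Insulin (67.6%, against 45.4% of all genes), 25 in BI (67.6%, against 45.7%), and 24 in BI against Insulin (64.9%, against 49.7%). Quantile normalization gave 31 in Insulin (83.8%, against 52.1%), 28 in BI (75.7%, against 48.8%) and 14 in BI against Insulin (37.8%, against 46.2%).

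**Figure D2:**
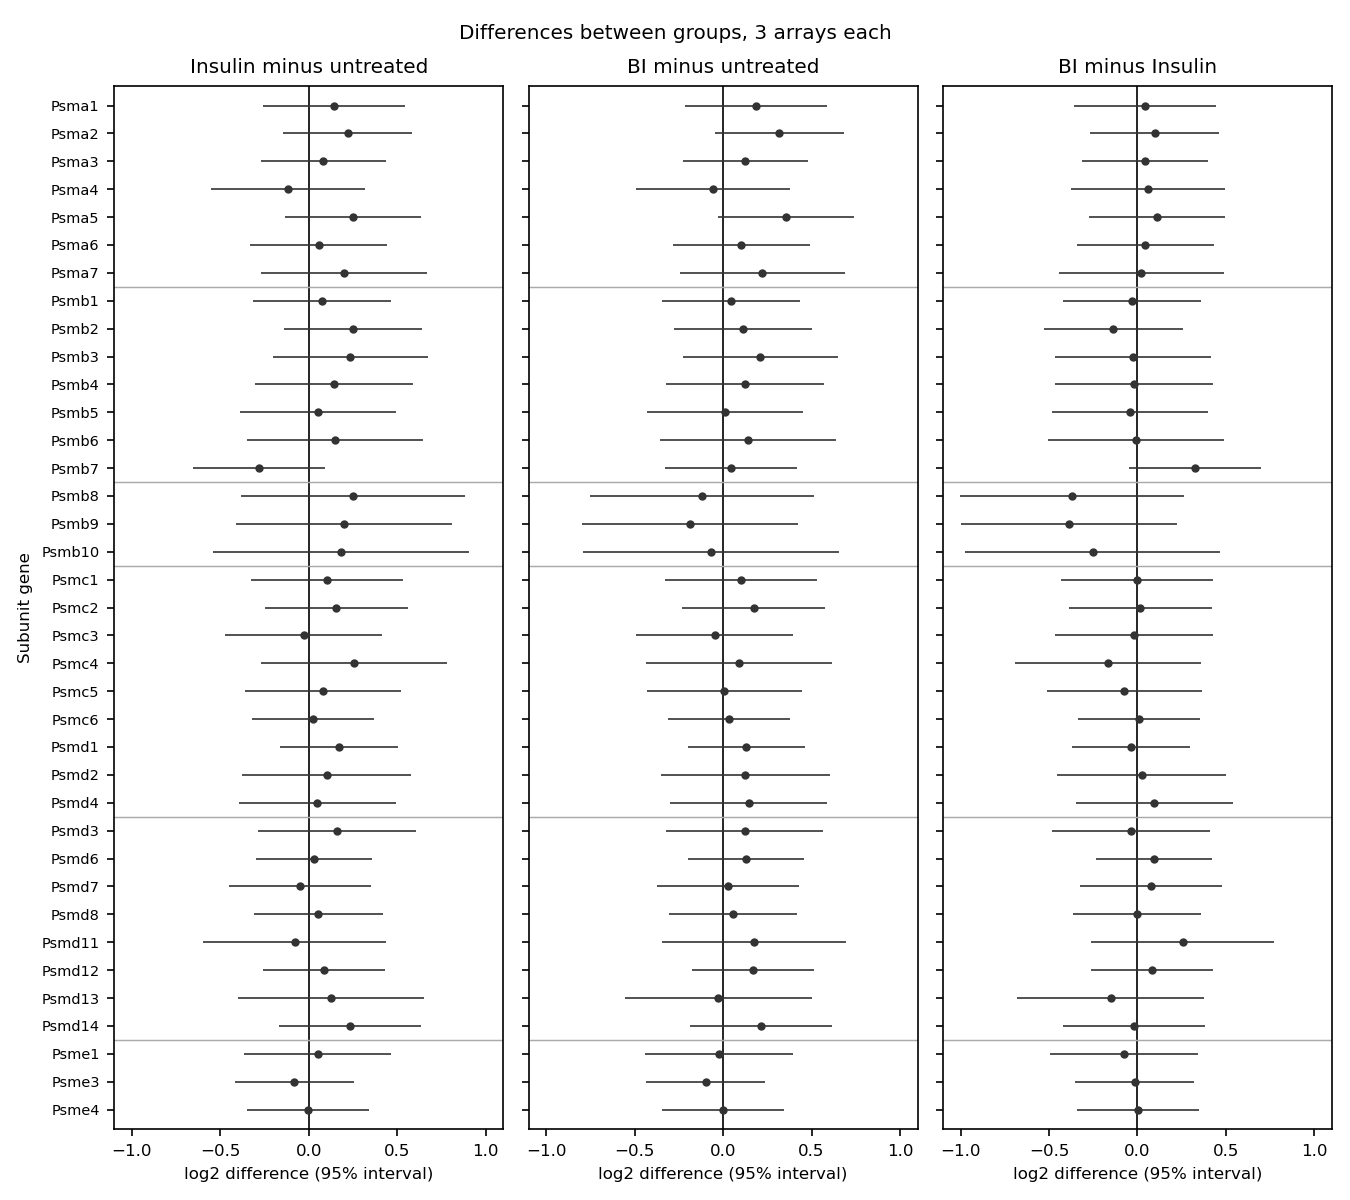
Points give the log2 difference of group means for each of the 37 subunit genes and bars its 95% interval from limma (3 arrays per group), in Insulin minus untreated, BI minus untreated and BI minus Insulin. All bars cross 0; most points of the first and second panels lie right of 0 (30 and 28 of 37), and the immunoproteasome genes Psmb8, Psmb9 and Psmb10 have the points farthest left in the third.

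Groups that did not overlap, with every array of one above every array of the other, were found for 7 subunit genes in at least 1 comparison. In Insulin against untreated 4 genes were wholly higher (Psma2, Psma5, Psmd1 and Psmd14) where 5.74% of all genes were, and 1 was wholly lower (Psmb7) where 3.48% were. In BI against untreated 4 were wholly higher (Psma2, Psma5, Psmd1 and Psmd6) where 4.84% of all genes were, and 0 were wholly lower where 4.52% were. In BI against Insulin 2 were wholly higher (Psmb7 and Psmd6) where 4.2% were, and 1 was wholly lower (Psmb2) where 5.68% were.

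Among the alpha subunits, 6 of 7 had a higher mean in Insulin than in the untreated group (median difference 0.14), and 6 of 7 in BI (0.19); Psma4 was lower in both (-0.12 and -0.06). Without untreated replicate 3 these medians were 0.056 and 0.088. In BI the median was 0.29 without untreated replicate 1, 0.11 without BI replicate 1 and 0.27 without BI replicate 2. Psma5 and Psma2 stood out by their distance from the untreated arrays. Psma5, an alpha subunit of the ring that gates the core, read 13.22, 13.20 and 13.19 (log2 signal) on the untreated arrays, 13.26, 13.62 and 13.47 on the Insulin arrays and 13.64, 13.40 and 13.64 on the BI arrays. Each treated array was above all untreated ones, and Insulin and BI overlapped. Its log2 difference from untreated was 0.25 (SE 0.16) in Insulin and 0.36 (SE 0.16, a fold of 1.28, limma adjusted p = 0.9991) in BI.

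Psma2, another alpha subunit, read 12.53, 12.61 and 12.55 untreated, 12.65, 12.91 and 12.79 in Insulin and 12.98, 12.74 and 12.93 in BI. As with Psma5, all treated arrays were above the untreated ones, with Insulin replicate 1 and BI replicate 2 the lowest of their groups. The differences were 0.22 (SE 0.16) in Insulin and 0.32 (SE 0.16, limma adjusted p = 0.9991) in BI. Leaving out any array in turn kept the BI difference of Psma2 between 0.27 and 0.39 and that of Psma5 between 0.32 and 0.44, untreated replicate 3 included. The other alpha genes differed from untreated by 0.20 and 0.22 (Psma7), 0.14 and 0.19 (Psma1), 0.08 and 0.13 (Psma3) and 0.06 and 0.10 (Psma6), in Insulin and BI.

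Psma5 has 3 probe sets of its own. The second-brightest (mean level 11.90) read 11.89, 11.75 and 11.71 untreated, 11.78, 11.99 and 11.91 in Insulin and 12.13, 11.89 and 12.07 in BI. Its BI difference was 0.24 (SE 0.16), and its groups overlapped, the lowest BI array being level with the highest untreated one. The third read 4.92, 5.41 and 5.29 untreated, 6.47, 6.87 and 5.91 in Insulin and 6.57, 7.15 and 6.48 in BI. It was picked out after its values were seen. Its untreated values were below every array median, so no size of difference is given; the limma adjusted p values were 0.90 in Insulin and 0.63 in BI.

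**Figure D3:**
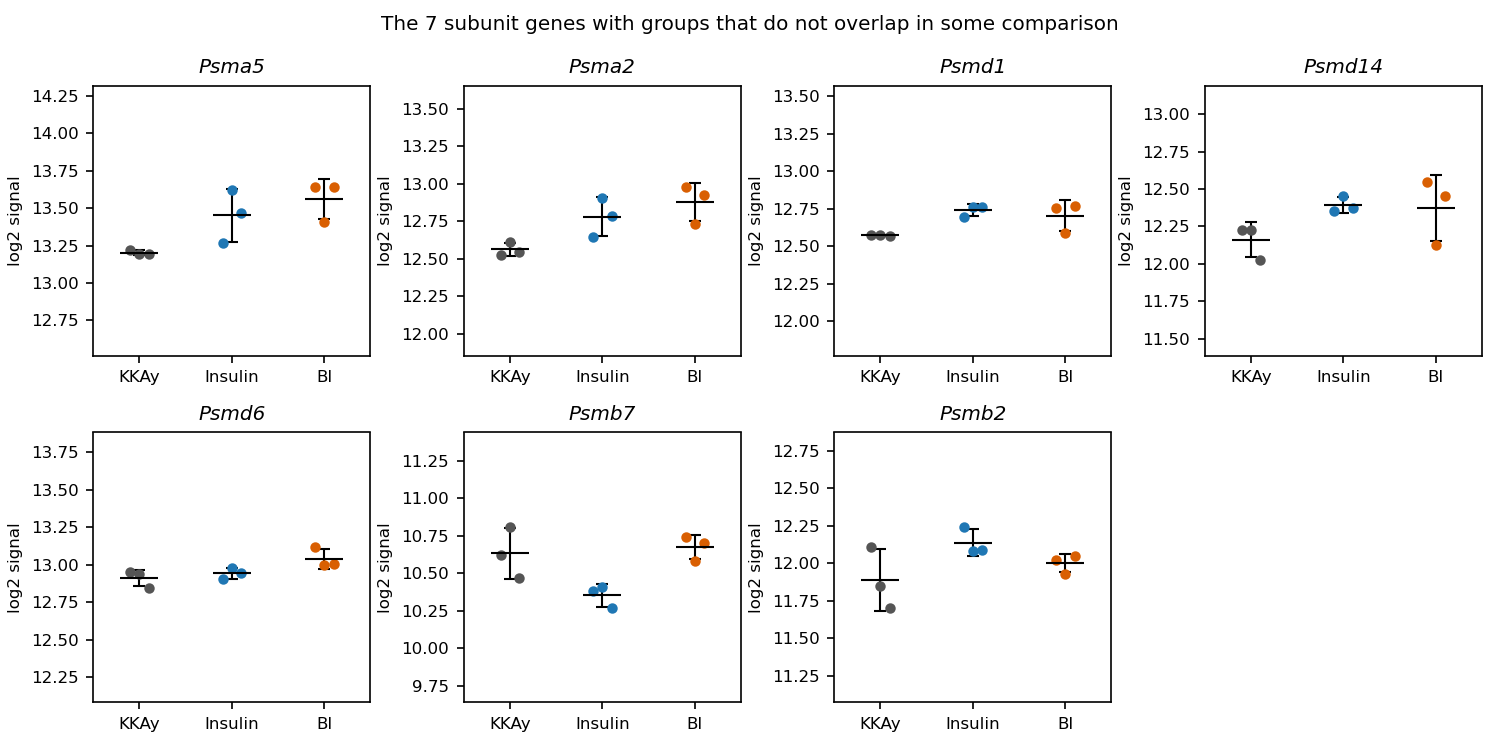
Log2 signal on each array for the 7 subunit genes with non-overlapping groups in at least 1 comparison (points are arrays, the line and bars are the mean and SD of 3 arrays; all panels span the same log2 range). Psma5, Psma2 and Psmd1 have every treated array above every untreated one, and Psmb7 has its 3 Insulin arrays below all the others.

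The constitutive beta subunits were higher in Insulin than in untreated for 6 of 7 genes (median 0.14) and in BI for 7 of 7 (0.11), while 1 of 7 was higher in BI than in Insulin (-0.026). These counts turned with single arrays. Without untreated replicate 3, 3 of 7 were higher in Insulin (-0.034) and 2 of 7 in BI (-0.039). The Insulin median was 0.22 without untreated replicate 2. The BI median was 0.17 without untreated replicate 1, 0.012 without BI replicate 1 and 0.15 without BI replicate 2. Without BI replicate 2, 6 of 7 were higher in BI than in Insulin (0.083), and that median was -0.090 without BI replicate 1 and -0.044 without BI replicate 3. Psmb7, the subunit with trypsin-like activity, was the one apart. It read 10.62, 10.81 and 10.47 untreated, 10.38, 10.41 and 10.27 in Insulin and 10.74, 10.58 and 10.70 in BI. The 3 Insulin arrays were below all 6 others, and untreated and BI overlapped.

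For Psmb7 the log2 difference of Insulin from untreated was -0.28 (SE 0.16, limma adjusted p = 0.9999) and that of BI from Insulin 0.32 (SE 0.16, limma adjusted p = 0.9999). Leaving out each array in turn gave -0.36 to -0.19 and 0.28 to 0.37. The other active-site genes differed less. Psmb5, with chymotrypsin-like activity, read 12.67, 12.67 and 12.28 untreated, 12.62, 12.58 and 12.58 in Insulin and 12.80, 12.37 and 12.49 in BI; all groups overlapped. Psmb6, with caspase-like activity, read 13.00, 12.89 and 12.37 untreated, 12.99, 12.92 and 12.79 in Insulin and 13.03, 12.69 and 12.96 in BI, again with overlap of all groups and with untreated replicate 3 the lowest array for both genes.

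Of the beta subunits without an active site, Psmb2 read 12.11, 11.85 and 11.70 untreated, 12.24, 12.08 and 12.09 in Insulin and 12.02, 11.93 and 12.05 in BI. Its Insulin arrays were above all BI arrays, and the log2 difference of BI from Insulin was -0.14 (SE 0.17). Against untreated its Insulin difference was 0.25 (SE 0.17), with overlap at untreated replicate 1. Psmb3 read 13.38, 13.16 and 12.92 untreated, 13.33, 13.47 and 13.36 in Insulin and 13.49, 13.15 and 13.45 in BI, and all groups overlapped. The differences of Psmb1 and Psmb4 from untreated were 0.07 and 0.14 in Insulin and 0.04 and 0.12 in BI.

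With all arrays and the deposited values, the immunoproteasome genes were the one of 6 subunit classes whose median differed in direction between the insulin groups. In Insulin 3 of 3 were higher than untreated (median log2 difference 0.20), and in BI 0 of 3 (median -0.12). With quantile normalization the activators differed in direction too (medians 0.0062 in Insulin and -0.028 in BI). Without untreated replicate 3 their medians were 0.040 and -0.034. None of these differences passed the test. Psmb8, the counterpart of Psmb5, read 10.84, 10.83 and 10.23 untreated, 10.62, 11.07 and 10.95 in Insulin and 10.91, 10.47 and 10.17 in BI. Psmb9, the counterpart of Psmb6, read 11.13, 10.57 and 10.35 untreated, 10.71, 10.91 and 11.03 in Insulin and 10.84, 10.31 and 10.34 in BI. Psmb10, the counterpart of Psmb7, read 11.14, 11.08 and 10.14 untreated, 10.89, 11.07 and 10.95 in Insulin and 11.10, 10.58 and 10.46 in BI.

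All groups overlapped for these 3 genes, since BI replicate 1 reached the level of the Insulin arrays while BI replicates 2 and 3 were below them. The log2 difference of BI from Insulin was -0.37 for Psmb8 (SE 0.27), -0.39 for Psmb9 (SE 0.26) and -0.25 for Psmb10 (SE 0.31), each with a limma adjusted p of 0.9999. The median of the 3 was -0.37, and ranged from -0.56 without BI replicate 1 to -0.20 without BI replicate 3. Against untreated the BI median turned to 0.036 without untreated replicate 1 and to 0.055 without BI replicate 3, and was -0.36 without untreated replicate 3 and -0.31 without BI replicate 1. The Insulin median was 0.032 without untreated replicate 3, with 2 of 3 genes higher. It was 0.36 without untreated replicate 1 and 0.33 without untreated replicate 2. A dimmer probe set of Psmb8 (mean level 6.70) read 6.98, 6.56 and 7.19 untreated. It read 6.78, 7.35 and 7.60 in Insulin and 4.76, 6.26 and 6.81 in BI. Its BI difference from Insulin was -1.30 (SE 0.52, limma adjusted p = 0.9999), with overlap of the groups. Its value on BI replicate 1 was below every array median, whereas the brighter probe set was highest of the BI arrays there.

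Markers of immune and vascular cells of the liver, which can express these genes, were read beside them. In BI against Insulin, 6 of 6 Kupffer cell and macrophage markers had the lower mean (median -0.23), as did 5 of 5 endothelial markers (-0.32), 3 of 3 neutrophil markers (-0.44) and 3 of 4 dendritic cell markers (-0.59), while 4 of 7 T and NK cell markers and 2 of 3 B cell markers (0.091) had the higher mean. Of all genes, 45.7% had the higher mean in this comparison. On BI replicate 1 all 6 Kupffer markers were above their own mean over the 9 arrays. On BI replicates 2 and 3, 5 and 6 of them were below. The 3 immunoproteasome genes were above their means on BI replicate 1 and below on BI replicates 2 and 3. On untreated replicate 1 these genes were above, while 5 of 6 Kupffer and 5 of 5 endothelial markers were below. On untreated replicate 3 these genes were below, with 3 of 6 Kupffer and 5 of 5 endothelial markers above. On Insulin replicates 2 and 3 these genes were above, as were 5 and 6 Kupffer markers. The 3 neutrophil markers had their lowest values on BI replicate 3. The summed linear signal of the Kupffer list was 11020 to 20330 untreated, 13690 to 20090 in Insulin and 11890 to 22910 in BI. That of the endothelial list was 4320 to 6169, 5548 to 7106 and 3982 to 5454. The neutrophil sums were 1515 to 9477, 1350 to 4051 and 918.8 to 2645. The T and NK cell sums were 226.4 to 313.9, 252.9 to 360.2 and 255 to 450.9, and 0 of 7 T and NK cell, 0 of 3 B cell and 0 of 4 dendritic cell markers had a mean above the array medians. In all of these lists 0 markers were at 0, and their part in the immunoproteasome values was not tested.

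Each immunoproteasome gene was also set against its constitutive counterpart, as the difference of log2 signals relative to the untreated mean. For Psmb10 minus Psmb7 this was 0.36, 0.11 and -0.48 on the untreated arrays, 0.35, 0.51 and 0.53 in Insulin and 0.21, -0.16 and -0.39 in BI. The 3 Insulin arrays were above all BI arrays, and Psmb7 contributed to this from the other side. For Psmb8 minus Psmb5 it was 0.08, 0.06 and -0.14 untreated, -0.09, 0.40 and 0.28 in Insulin and 0.02, 0.01 and -0.41 in BI. For Psmb9 minus Psmb6 it was 0.21, -0.25 and 0.04, then -0.22, 0.06 and 0.31, and then -0.12, -0.31 and -0.55. Insulin and BI overlapped for these other 2 pairs, and the mean was lower in BI than in Insulin for all 3 pairs (by -0.33, -0.38 and -0.58 for Psmb8, Psmb9 and Psmb10).

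**Figure D4:**
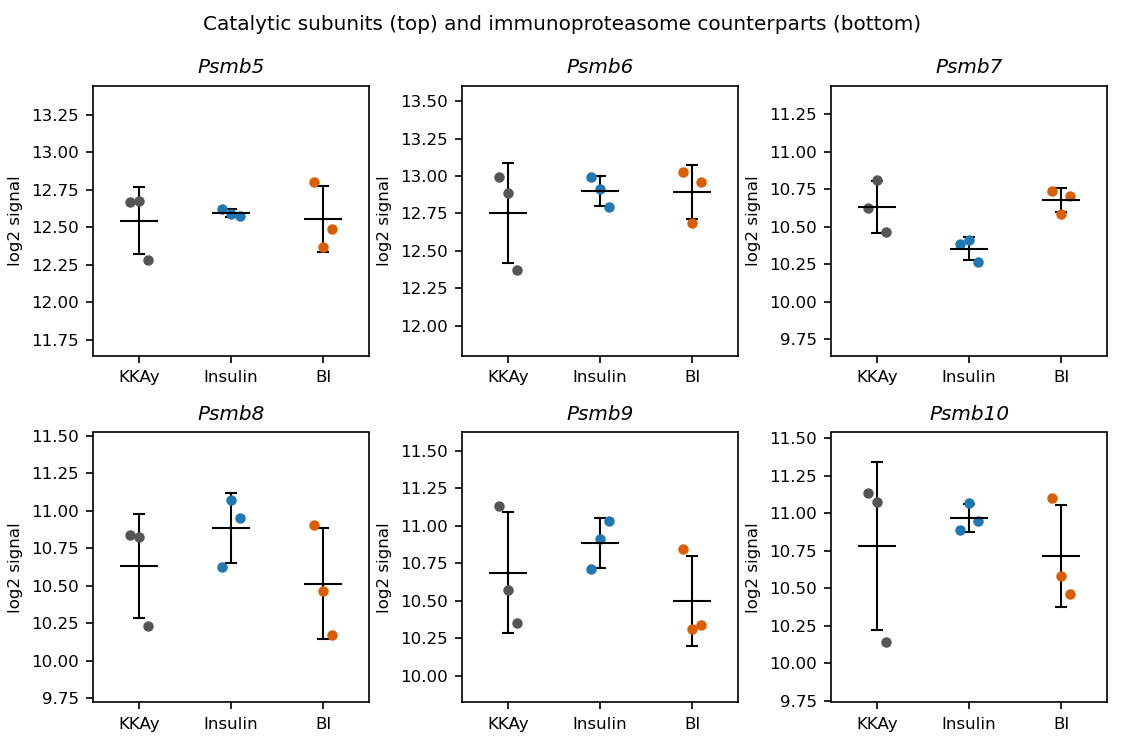
Log2 signal on each array for the active-site subunits Psmb5, Psmb6 and Psmb7 (top) and the immunoproteasome genes that replace them, Psmb8, Psmb9 and Psmb10 (bottom); points are arrays, the line and bars the mean and SD of 3 arrays. The bottom row is more spread out within groups (SD up to 0.56 for Psmb10 untreated), and in BI its lower 2 arrays lie under every Insulin array.

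In the base, 8 of 9 genes had the higher mean in Insulin (median 0.10) and 8 of 9 in BI (0.10) against untreated; Psmc3, an ATPase subunit, was the exception in both (-0.03 and -0.05). Without untreated replicate 3 the counts were 5 of 9 in Insulin (0.040) and 6 of 9 in BI (0.048), and without untreated replicate 1 the medians were 0.17 in each. The Insulin median was 0.067 without untreated replicate 2, 0.17 without Insulin replicate 1 and 0.063 without Insulin replicate 2. The BI median was 0.038 without BI replicate 1, 0.21 with 9 of 9 genes higher without BI replicate 2, and 0.056 without BI replicate 3. In BI against Insulin 4 of 9 base genes were higher: 9 without BI replicate 2, 7 without Insulin replicate 2, 6 without Insulin replicate 3, 2 without BI replicate 1, and 1 without Insulin replicate 1 or BI replicate 3. Psmd1, a scaffold subunit of the base, read 12.58, 12.57 and 12.57 untreated, 12.70, 12.76 and 12.76 in Insulin and 12.76, 12.58 and 12.77 in BI. Every treated array was above every untreated one, by the smallest of margins for BI replicate 2. Its log2 differences were 0.17 (SE 0.14) in Insulin and 0.13 (SE 0.14) in BI, with limma adjusted p values of 0.9999 and 0.9991.

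The ATPase genes Psmc1, Psmc2, Psmc4, Psmc5 and Psmc6 differed from untreated by 0.10, 0.16, 0.26, 0.08 and 0.02 in Insulin and by 0.10, 0.17, 0.09, 0.01 and 0.03 in BI. Psmd2, the other scaffold subunit, differed by 0.10 and 0.13. Psmd4, a ubiquitin receptor, differed by 0.05 and 0.15. Standard errors for these genes were 0.15 to 0.23.

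In the lid, 6 of 8 genes were higher than untreated in Insulin (median 0.07) and 7 of 8 in BI (0.12). The Insulin median was 0.11 without untreated replicate 2 and 0.12 without Insulin replicate 3. The BI median was 0.078 without untreated replicate 3 and 0.17 without BI replicate 2. Psmd14, the enzyme that cuts ubiquitin off substrates, read 12.23, 12.23 and 12.03 untreated, 12.36, 12.45 and 12.37 in Insulin and 12.54, 12.13 and 12.45 in BI. The Insulin arrays were all above the untreated arrays, and BI replicate 2 fell among the untreated ones. The log2 differences were 0.23 (SE 0.17) in Insulin and 0.21 (SE 0.17) in BI, the latter 0.34 without BI replicate 2 and 0.13 without BI replicate 1.

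Psmd6, a structural lid subunit, read 12.95, 12.94 and 12.85 untreated, 12.90, 12.98 and 12.95 in Insulin and 13.12, 13.00 and 13.01 in BI. Its BI arrays were above the other 6, with log2 differences of 0.13 from untreated and 0.10 from Insulin (SE 0.14 each). Psmd12, a scaffold of the lid, read 11.98, 12.15 and 12.01 untreated, 12.15, 12.18 and 12.06 in Insulin and 12.29, 12.11 and 12.23 in BI, with overlap of all groups. Psmd11, a lid subunit with a part in assembly, read 13.44, 13.55 and 13.88 untreated, 13.16, 13.72 and 13.74 in Insulin and 13.83, 13.67 and 13.90 in BI; it was high on untreated replicate 3, where most subunits were low, and its low Insulin value came from replicate 1.

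The remaining lid genes differed from untreated, in Insulin and BI, by 0.16 and 0.12 (Psmd3), -0.05 and 0.03 (Psmd7), 0.05 and 0.05 (Psmd8) and 0.13 and -0.03 (Psmd13). A second probe set of Psmd6 read 9.66, 8.76 and 9.22 untreated, 9.66, 9.51 and 9.57 in Insulin and 10.09, 9.28 and 12.97 in BI. BI replicate 3 stood far above the rest in that probe set alone. It did not do so in the brighter one.

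Of the activators, 1 of 3 measured genes was higher than untreated in Insulin (median -0.0054) and 0 of 3 in BI (-0.025). In Insulin 2 of 3 were higher without untreated replicate 3 (0.040), Insulin replicate 1 (0.032) or Insulin replicate 2 (0.0074), and the BI median was -0.14 without BI replicate 1. Psme1, which forms the interferon-inducible activator with Psme2, read 12.35, 12.15 and 12.22 untreated, 12.33, 12.29 and 12.26 in Insulin and 12.49, 12.18 and 11.98 in BI, with overlap of all groups. Psme3, a nuclear activator, read 9.01, 9.04 and 9.16, then 9.03, 8.99 and 8.93, and then 9.05, 8.96 and 8.90. Psme4, which encodes the activator PA200, read 13.27, 13.26 and 13.41, then 13.22, 13.28 and 13.41, and then 13.25, 13.32 and 13.35. For Psme4 the 95% intervals of both differences from untreated ran from -0.35 to 0.34. Whether the activators differ from the other classes was not tested.

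Several subunits are read by more than 1 probe set. The 37 genes had 81 probe sets of their own: 16 genes had 1, 21 had several, and Psmd11 had 8. Of 31 other probe sets above the array medians, 19 had the sign of the chosen one in Insulin against untreated, 23 in BI against untreated and 21 in BI against Insulin. Psma6, Psmb1, Psmd11, Psmd13 and Psme4 had a probe set of opposite sign in all 3 comparisons. Psma1, Psma3, Psmc4, Psmc6, Psmd4 and Psmd7 had one in at least 1 comparison but not in all 3. For all of these genes the direction thus differed with the probe set read.

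Of 54 other genes of the pathway in 6 lists, 43 were measured, and 0 passed the test in any comparison. Among genes that assemble the complex, 5 of 9 were higher than untreated in Insulin (median 0.028) and 6 of 9 in BI (0.044); Psmg1, an assembly chaperone of the alpha ring, differed by 0.22 in Insulin and Psmg4, another chaperone of the core, by -0.25 in BI. Of the ubiquitin shuttles and the p97 (Vcp) group, which bring substrates to the proteasome, 8 of 8 were higher in Insulin (median 0.058) and 7 of 8 in BI (0.14). Ufd1, a p97 cofactor, differed by 0.20 (SE 0.16) and 0.26 (SE 0.16), and Nsfl1c, another, by 0.22 in BI.

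Transcription factors of proteasome genes were higher in 3 of 8 in each insulin group (median -0.098 and -0.057). Ciita, the activator of MHC class II genes, differed by 0.74 in BI (SE 0.37, limma adjusted p = 0.9991) at a level near the array medians, and Irf1, an interferon response factor, by -0.19 in Insulin and -0.13 in BI. Other bound factors were higher in 5 of 7 (Insulin) and 2 of 7 (BI), with Ecpas, a proteasome-binding scaffold, at 0.21 in each. Uba6, a ubiquitin-activating enzyme and the 1 gene measured of its list of 6, differed by -0.10 and 0.04.

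The MHC class I list, whose products load the peptides that proteasomes make, was higher than untreated for 5 of 10 genes in Insulin (median -0.0032) and 7 of 10 in BI (0.090). Pdia3, a chaperone of peptide loading in the endoplasmic reticulum, read 13.15, 13.17 and 13.18 untreated, 13.11, 13.13 and 13.23 in Insulin and 13.43, 13.46 and 13.49 in BI. Its BI arrays were above all 6 others, with log2 differences of 0.29 (SE 0.14, limma adjusted p = 0.9991) from untreated and 0.30 (SE 0.14, limma adjusted p = 0.9999) from Insulin. Canx, a chaperone of the same compartment, differed by 0.15 in Insulin and 0.24 in BI.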

How the data were processed

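Liver RNA of 9 arrays in 3 groups of 3 was analysed from the deposited table, in which the authors give log2 signals per probe set; the software behind them was not given in the sources used here. A floor of 0 and a 2% trimmed mean of 500.004 (linear scale) were found on each array, and the values were used as deposited. Of 45101 probe sets, 64 controls were left out. The platform annotation gave 1 gene symbol for 34945, several for 932 and none for 9160; 34741 were matched to RefSeq gene IDs.

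One limma fit held all arrays (limma 3.58.1, R 4.3.3; lmFit and eBayes, 6 residual degrees of freedom, group as factor), with two-sided tests, Benjamini-Hochberg adjustment over 45037 probe sets and a threshold of 0.05; it was tested on simulated data. Members, gene lists and rules were chosen with earlier results of these data known. By the rule, array values are given for the catalytic genes, their counterparts, Psme1 and the 5 members of smallest p in each comparison. Of each other list at most 2 genes are named, taken from the 2 of smallest p in a comparison. Not all genes of that rank are named. Psmd1, Psmd6, Psme3, Psme4 and additional probe sets were given array values after these were seen. Precision is limited by the number of arrays: the median SE of a subunit gene's log2 difference was 0.18. Promoters are from RefSeq (GRCm38.p6), the first listed window of a gene.

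The fit was repeated with quantile-normalized values, with equal array medians, without dim probe sets, with a variance trend and robust fitting, on 2 groups at a time, with array weights, with all probe sets of a gene averaged, with a replicate block, and without each array in turn.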

Additional observations from a re-analysis of the deposited data

How the results depend on the processing

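Under all 17 alternatives, 0 subunit genes passed the threshold in any comparison, with a smallest adjusted p of 0.686. Of 527 values of single genes under alternatives, 23 changed sign and 0 were called. With equal array medians the log2 difference of Psmb5 turned to -0.00080 in Insulin and -0.017 in BI against untreated, that of Psme1 in Insulin to -0.0041, and that of Psmb6 in BI against Insulin to 0.014. With all probe sets of a gene averaged, Psmd11 in BI against Insulin turned to -0.066. Leaving out each array in turn gave, in Insulin against untreated, -0.076 to 0.12 for Psmb5, -0.041 to 0.27 for Psmb6 and -0.14 to 0.36 for Psmb10. In BI against untreated it gave -0.12 to 0.10 for Psmb5, -0.051 to 0.26 for Psmb6, -0.039 to 0.13 for Psmb7, -0.32 to 0.055 for Psmb8, -0.36 to 0.036 for Psmb9, -0.39 to 0.11 for Psmb10 and -0.16 to 0.094 for Psme1. In BI against Insulin it gave -0.16 to 0.051 for Psmb5, -0.078 to 0.092 for Psmb6, -0.21 to 0.044 for Psme1, and 13 to 29 subunit genes higher. The cause of these sign changes was not tested.

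Over all probe sets, the 5 calls in BI against untreated became 1 with the filter on dim probe sets, 0 in the fit of 2 groups, 0 with the replicate block and 0 to 2 without each array. The 0 calls in BI against Insulin became 1 with that filter and 0 to 1 without each array. Same-numbered arrays did not vary together (9 pairs, correlation of deviations from -0.034 to 0.036), so the numbers were not taken as pairs; the replicate block left 0 subunit genes called.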
